A study of Drosophila melanogaster with 8 samples.

Results

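Small nucleolar RNAs (snoRNAs) were examined in the heads of flies whose ADAR editing enzyme was catalytically inactive and in wild type heads. They were taken as the identifiers of the expression table whose FlyBase symbol begins with snoRNA:, which gave 239 snoRNAs among 14622 identifiers. The symbol also gave the class. Symbols with Psi or Or-aca (109 snoRNAs) were counted as H/ACA box, and symbols with Me, Or-CD or CD and the U and snR names (100 snoRNAs) as C/D box. The symbol gave no class for the other 30, such as snoRNA:660 and snoRNA:Tudor-SN-a. The prefix snoRNA: is left out below.

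The mutant (EA) carried Adar E374A, a point mutation that leaves the protein in place, and a further synonymous change in Adar. It also carried the markers y and sc, and its stock had been backcrossed to white Canton-S. The wild type (WT) was white Canton-S. Each group had 4 libraries of heads from 3-day-old males raised at 18 °C. Nothing in the labels says whether the replicates of a group came from separate cultures, so p-values measure the spread between these libraries, which may be technical. The RNA had been depleted of ribosomal RNA before library construction, although the molecule is given as polyA RNA in the sample records.

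Most snoRNAs are guides that base-pair with ribosomal RNA. H/ACA box snoRNAs direct pseudouridylation, with Nop60B (the fly dyskerin) as the enzyme, and C/D box snoRNAs direct ribose methylation, with Fibrillarin. In flies nearly all are cut from the introns of host genes, which encode proteins or, in the case of the Uhg genes, spliced transcripts known mainly as snoRNA carriers. Mature snoRNAs carry no poly(A) tail, and C/D box snoRNAs are as a class shorter than H/ACA box snoRNAs.

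Libraries held 12517490 to 24342035 reads in EA and 9930607 to 19173154 in WT, summed over the table. All values are normalized read counts, that is, reads divided by 1 size factor per library. The gene w, which is mutated in the WT strain, had 134 to 189 normalized counts in EA and 0 to 3.97 in WT. The groups thus differed in w as well as in Adar, and by the description of the stocks in y and sc. These differences cannot be told apart here. Adar, w and y all lie on chromosome X. A point mutation leaves the Adar transcript in place, so the level of Adar does not test the labels. All 5 head markers (ninaE, Arr2, elav, nSyb and repo) were abundant, with group means from 773 to 138906. The photoreceptor markers moved with the groups. Arr2 was called higher in EA (65838 to 83462 normalized counts, beside 38540 to 50853 in WT; log2 difference 0.83 ± 0.13, limma adjusted p = 0.0166). ninaE, with 129024 to 158575 in EA and 85506 to 108243 in WT, differed by 0.57 ± 0.13 (limma adjusted p = 0.0853). The neuronal markers elav and nSyb and the glial marker repo had log2 fold changes of 0.16, 0.03 and -0.04 and were not called. The part of these markers in the snoRNA levels was not tested. Summed markers of accessory gland were 2.64 to 10.3 in EA and 4.84 to 10.6 in WT (2 of 4 genes in the table), and those of testis 5.47 to 25.2 and 11.1 to 18.3 (3 of 4 genes, with dj at 0 in all WT libraries). Those of midgut were 1.76 to 200 in EA and 0 to 11.8 in WT (2 of 4 genes), and the highest value came from Amy-p in EA replicate 3. In RNA from whole heads, fewer cells of a type and less RNA per cell cannot be told apart.

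The table held snoRNAs of very unequal level, and the class and the annotated length went with the level. Reads were found in every library for 153 of the 239 snoRNAs, whereas 40 had at most 3 reads in each library. H/ACA box snoRNAs (124 to 268 bases, median 140) had a median of 33.2 normalized counts per 100 bases over the 8 libraries. C/D box snoRNAs (46 to 213 bases, median 78.5) had a median of 2.09 per 100 bases. Of the 40 snoRNAs with at most 3 reads per library, 36 were C/D box. The annotated lengths of the C/D and H/ACA box snoRNAs overlapped little, so class and length cannot be told apart in most of the table.

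Of the 4 C/D box snoRNAs longer than 130 bases, Or-CD2 (140 bases, 818 normalized counts per 100 bases) and U3:9B (213 bases, 182 per 100 bases) were exceptions. The others of the 4 were low. The median of the 4, 91.5 per 100 bases, therefore lay between high and low members. U3 RNA acts in the cleavage of the ribosomal RNA precursor rather than in guided methylation. The other U3 genes, U3:54Aa and U3:54Ab, stood at 1.96 and 2.20 normalized counts beside 388 for U3:9B. Reads of near-identical copies can be divided or dropped in counting, so the share of each U3 gene is uncertain. The C/D box snoRNAs of up to 100 bases numbered 91 and had a median of 2.05 normalized counts per 100 bases. In the class not given by symbol, 6 snoRNAs of up to 100 bases had a median of 68.2 per 100 bases, so not every short snoRNA was low.

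**Figure D1:**
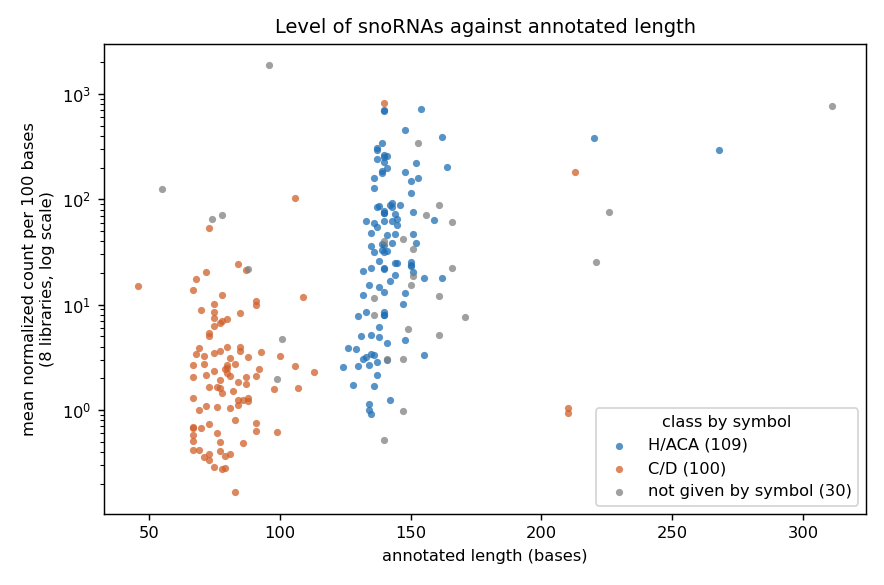
Mean normalized count per 100 bases over the 8 libraries (log scale) against annotated length in bases, 1 point per snoRNA, coloured by the class its symbol gives. Most C/D box points lie under 100 bases with a class median of 2.09, and the H/ACA box points begin at 124 bases with a class median of 33.2.

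A mean normalized count of at least 10 was required for testing, and 115 of the 239 snoRNAs (48.1%) met it. These were 84 of 109 H/ACA box snoRNAs (77.1%), 9 of 100 C/D box snoRNAs (9%) and 22 of 30 without a class in the symbol (73.3%). The comparisons below therefore describe H/ACA box snoRNAs in the main and say little of C/D box snoRNAs. Of the 115, 5 had a mean under 10 in WT and passed through EA (Me28S-A3407a, Psi18S-841c, lola-c, Psi18S-525k and Psi28S-2444), so their sign was favoured by the filter. None passed through WT alone. Or-CD10 (9.14 normalized counts) and MeU6-A47 (9.94) lay just below the limit, and Psi28S-2444 (10.2) and hts-a (10.9) just above it.

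snoRNA levels tended to be higher in EA than in WT, but no snoRNA passed the test. The difference was tested with limma on log2 of the normalized count plus 1 across 10347 genes, with p-values adjusted by the Benjamini-Hochberg method and a gene called at an adjusted p under 0.05. By limma 0 of 115 tested snoRNAs were called, where 1.21% of all tested genes were, and the smallest adjusted p was 0.125. The log2 fold change of EA over WT was above 0 in 112 of 115 snoRNAs, against 49.3% of all tested genes. Its median was 0.46 over the snoRNAs and -0.003 over all tested genes. Among the 110 with a mean of at least 10 in both groups, 107 were above 0 and the median was 0.45. With no filter on low counts, 198 of the 239 snoRNAs were above 0. An unadjusted limma p under 0.05 was found for 31 snoRNAs, each higher in EA, where 7.00% of all tested genes were higher in EA at that level. This count depended on single libraries: it fell to 11 when EA replicate 1 was left out and to 16 for EA replicate 2, 15 for WT replicate 2 and 14 for WT replicate 4, and it was 49 when EA replicate 4 was left out. With the libraries scaled by total reads it was 52. All EA libraries exceeded all WT libraries in 7 of the 115, against 3.96% of all tested genes.

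The other count models gave few or no calls among the snoRNAs. edgeR, run on the recovered whole reads, called 0 of 115 snoRNAs (1.22% of all tested genes), with 32 at an unadjusted p under 0.05. DESeq2 on the same reads called 3 of the 112 snoRNAs to which it gave an adjusted p (5.16% of all such genes). These were Psi28S-3342 (adjusted p = 0.00281), Psi28S-3308 (adjusted p = 0.0187) and Psi28S-1135c (adjusted p = 0.0473), all of them higher in EA. All 3 are H/ACA box guides named for positions in 28S rRNA.

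**Figure D2:**
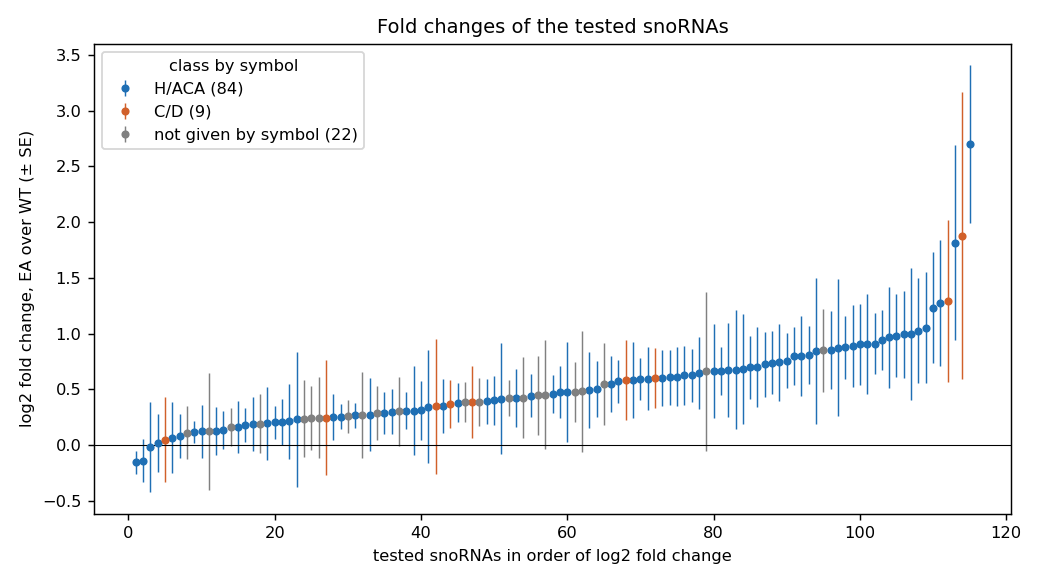
The log2 fold change of EA over WT with its standard error (limma) for each of the 115 tested snoRNAs, in ascending order and coloured by class. All but 3 points lie above 0, the values run from -0.16 to 2.70, and many error bars reach 0.

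By class, the median log2 fold change was 0.58 in the 84 tested H/ACA box snoRNAs, of which 81 were above 0. It was 0.39 in the 9 tested C/D box snoRNAs and 0.34 in the 22 without a class in the symbol, all of them above 0. Without Me28S-A3407a, the C/D box snoRNA that passed through EA alone, it was 0.38 over 8. By the target named in the symbol, the 30 tested guides to 18S rRNA had a median of 0.47 (30 above 0) and the 57 tested guides to 28S rRNA a median of 0.61 (54 above 0). By chromosome, the medians were 0.71 on X (20 tested), 0.46 on 2R (38), 0.42 on 3L (17), 0.35 on 3R (32) and 0.34 on 2L (8). RpS5a alone carried 13 of the 20 on X (median 0.88), so the X median rested largely on a single host gene. The snoRNAs that passed the filter through EA alone are counted in these values, and their sign was favoured. They were Psi18S-841c and Psi18S-525k (H/ACA box, 18S), Psi28S-2444 (H/ACA box, 28S), Me28S-A3407a (C/D box, 28S) and lola-c (no class in the symbol). All of them lie on 2R or 2L. The differences between the classes, targets and chromosomes were not tested. The snoRNAs of a host gene share a transcript and are not independent.

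The libraries of a group differed widely among themselves. The summed normalized count of all 239 snoRNAs was 34495, 28724, 25534 and 19263 in the EA libraries, listed here and below in order of replicate number, and 24391, 17274, 19359 and 15120 in those of WT. The groups overlapped, since EA replicate 4 lay below WT replicates 1 and 3. The mean was 27004 ± 6355 for EA and 19036 ± 3967 for WT (SD, n = 4), a ratio of 1.42. The ratio was 1.44 for H/ACA box, 1.80 for C/D box and 1.27 for the rest. Or-CD2 alone gave 1565 of the mean C/D box sum of 2532 in EA and 725 of 1406 in WT, and the C/D box ratio without it was 1.42. As a share of all reads, which needs no size factor, snoRNAs took 0.241%, 0.220%, 0.178% and 0.138% in EA and 0.156%, 0.110%, 0.131% and 0.114% in WT.

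The same libraries stood at the extremes for snoRNA after snoRNA. EA replicate 1 had the highest value of the 8 libraries for 68 of the 115 tested snoRNAs, and WT replicate 4 the lowest for 60. Within EA, replicate 4 was lowest for 72. Within WT, replicate 1 was highest for 63 and replicate 4 lowest for 67. EA replicate 4 and WT replicate 4 were also the most deeply sequenced libraries of their groups. WT replicate 2, however, had the fewest reads of the 8 libraries and the lowest value for 24 snoRNAs. The part of library depth in the snoRNA levels was not tested.

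The snRNAs and scaRNAs also spread widely between libraries, with replicate 4 of each group lowest. For each gene the deviation of a library from the mean of the 8 was taken on the log2 scale. The median deviation of the tested snoRNAs was 0.65, 0.33, 0.13 and -0.16 in EA, and 0.08, -0.35, -0.11 and -0.55 in WT. The spliceosomal and other snRNAs (17 tested) had 0.21, 0.49, 0.20 and -0.29 in EA and 0.26, -0.46, -0.04 and -0.74 in WT. The scaRNAs (10 tested), which guide the modification of snRNAs in Cajal bodies, had 0.61, 0.32, -0.03 and -0.16 in EA and 0.40, -0.18, -0.16 and -0.91 in WT. In each of these 3 sets replicate 4 was the lowest of its group. This held only in part for the tested tRNAs (8). They had 0.34, -0.03, 0.39 and 0.14 in EA and -0.06, 0.07, -0.24 and -0.46 in WT. WT replicate 4 was the lowest of its group there, and EA replicate 4 was not. The median over all genes ran from -0.0049 to 0.0078 over the libraries. The median log2 fold change of EA over WT was 0.21 for the snRNAs (16 of 17 above 0, 0 called) and 0.66 for the scaRNAs (9 of 10 above 0, 0 called). The snRNAs U5:38ABa, U5:23D and U2:38ABb passed the filter through EA alone, as did the scaRNAs MeU4-A65, PsiU5-44 and PsiU6-40. The snRNA U2:34ABc (log2 fold change -0.68) passed through WT alone. The sign of these was favoured by the filter. The median was 0.06 for the other 75 tested noncoding RNAs of under 350 bases, of which 45 were above 0. The 8 tRNAs had 0.44 (6 above 0, 0 called), and the 31 tested protein-coding genes of under 350 bases had 0.35 (24 above 0, 1 called, 14 at an unadjusted p under 0.05). The recovery of small RNAs as a source of these differences was not tested.

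**Figure D3:**
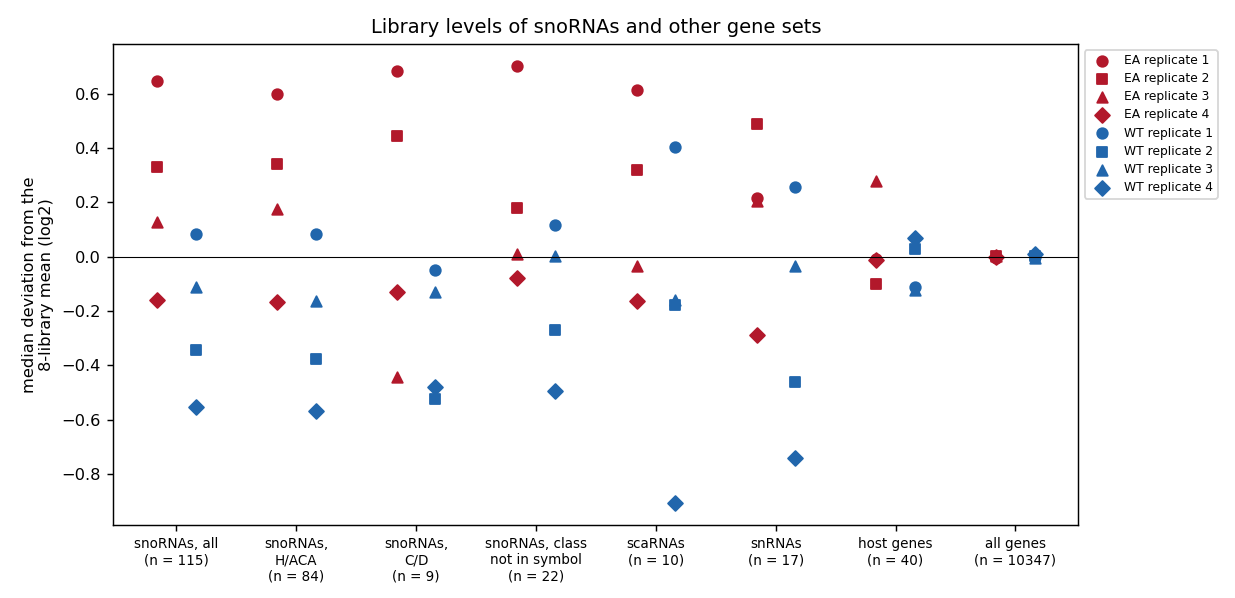
Median deviation of each library from the 8-library mean (log2), by gene set, with EA libraries in red and WT libraries in blue and a marker shape for each replicate number. The snoRNA, scaRNA and snRNA sets spread over libraries of the same group (snoRNAs from -0.55 to 0.65), while the medians of all genes lie at 0.

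The most abundant snoRNA was Tudor-SN-a, an RNA of 311 bases in an intron of Tudor-SN, a nuclease gene (chromosome 3L, 259970 to 260280 in the BDGP6.54 annotation). It had 2824, 2685, 2984 and 1927 normalized counts in EA and 2522, 2152, 2184 and 1806 in WT. EA replicate 4 lay below 3 WT libraries, so the groups overlapped. This gave a log2 fold change of 0.26 ± 0.15 (limma estimate ± SE with 4 libraries a group, as below; adjusted p = 0.541).

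The next, snoRNA:660, is annotated in full within an exon of the actin gene Act57B (chromosome 2R, 20945970 to 20946065). It had 2081, 1969, 1932 and 2164 normalized counts in EA and 1450, 1550, 1121 and 2103 in WT, and WT replicate 4 lay within the EA values. Its log2 fold change was 0.42 ± 0.16 (limma adjusted p = 0.306) beside 0.40 ± 0.16 for Act57B. The count of snoRNA:660 was 15.2% to 16.1% of that of Act57B in every library. Reads of an snoRNA and of an exon that contains it cannot be told apart. In all, 18 snoRNAs, snoRNA:660 among them, overlapped an exon of a host in whole or in part, and 4 of the 18 were tested.

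Among H/ACA box snoRNAs the highest was Psi18S-176, which had no annotated host. Its normalized counts were 1304, 1588, 1482 and 969 in EA and 1143, 848, 971 and 648 in WT, with EA replicate 4 below 2 WT libraries. The log2 fold change was 0.57 ± 0.20 (limma adjusted p = 0.239).

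Psi18S-1820, carried in an intron of Nop60B, had 843 to 1474 normalized counts in EA and 727 to 1162 in WT. Its log2 fold change was 0.30 ± 0.20, and that of its host was -0.22 ± 0.21. The remaining abundant H/ACA box snoRNAs were Psi18S-1854c, Psi28S-291, Psi28S-2566, Psi18S-1086 and Or-aca4, with log2 fold changes from 0.18 to 0.67 and limma adjusted p from 0.349 to 0.709. Their groups overlapped in each case.

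Psi28S-3342 showed the greatest difference between the groups. It is an H/ACA box snoRNA of 164 bases whose symbol names a target in 28S rRNA, on chromosome X (5524302 to 5524465) and with no annotated host. Its normalized counts were 1675, 468, 118 and 184 in EA and 86.0, 42.6, 65.8 and 37.4 in WT. All EA libraries lay above all WT libraries, but the EA libraries themselves spread from 118 to 1675, so that the EA mean of 611 ± 725 (SD, n = 4) rested largely on replicate 1. The log2 fold change was 2.70 ± 0.71 (limma adjusted p = 0.125) and was 1.96 without EA replicate 1. It was called by DESeq2, and by limma when EA replicate 3, the lowest EA library, was left out (adjusted p = 0.0491). Over all alternatives its adjusted p ran from 0.00281 to 0.302.

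The orphan snoRNAs Or-CD2 and Or-aca5, which have no assigned target, lie in introns of Uhg4 on chromosome 2R (9097030 to 9097169 and 9095685 to 9095832). Or-CD2 had 3114, 1827, 563 and 753 normalized counts in EA and 1691, 302, 728 and 180 in WT. Or-aca5 had 823, 338, 161 and 218 in EA and 294, 88.4, 173 and 62.3 in WT. For both, replicates 1 and 3 of WT exceeded EA replicate 3 and the groups overlapped. On the log2 scale Or-CD2 differed by 1.29 ± 0.72 and Or-aca5 by 1.27 ± 0.57, with limma adjusted p of 0.517 and 0.395. Both values depended on single libraries. Or-CD2 was at 0.85 when EA replicate 1 was left out and at 0.79 when WT replicate 4 was, and Or-aca5 was at 0.81 when EA replicate 1 was left out. The range over single libraries left out was 0.79 to 1.87 for Or-CD2 and 0.81 to 1.67 for Or-aca5. Or-CD2 stood at 2.89 to 5.76 times the count of Or-aca5 in every library, while each varied more than 10-fold between libraries. A gene on the other strand, Ctu1, overlaps Or-CD2 in the annotation. Other snoRNAs have such overlaps too, among them Or-aca4 (CG44403 and CG10936). Whether reads were counted by strand is not given in the sources used here, so reads of these genes and of the snoRNAs cannot be told apart.

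Psi18S-920, an H/ACA box snoRNA in an intron of RpL10Ab, had 314, 56.3, 28.4 and 26.4 normalized counts in EA and 56.9, 4.74, 22.7 and 11.1 in WT. WT replicate 1 exceeded 3 of the EA libraries. Its log2 fold change of 1.82 ± 0.87 (limma adjusted p = 0.436) was 1.03 without EA replicate 1. Me28S-A3407a, a C/D box snoRNA of Uhg1, passed the filter through EA replicate 1 alone. It had 137 normalized counts there, 1.09 to 2.64 in the other EA libraries and 0 to 2.16 in WT, and no fold is given.

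Only 3 tested snoRNAs had a log2 fold change below 0. Psi28S-1060, in RpL17, had 242, 208, 204 and 200 normalized counts in EA and 269, 232, 236 and 215 in WT. Its log2 fold change of -0.16 ± 0.10 had a limma adjusted p of 0.601. It was also among the steadiest, with a within-group SD of 0.13 on the log2 scale. Psi28S-3316b, in dom, had 34.4 to 51.0 in EA and 36.7 to 54.3 in WT, with a log2 fold change of -0.14 ± 0.19. Its neighbour Psi28S-3316a had -0.02 ± 0.41, a value whose sign was not stable, since it was 0.063 with total-read scaling, 0.091 in edgeR and 0.082 in DESeq2.

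**Figure D4:**
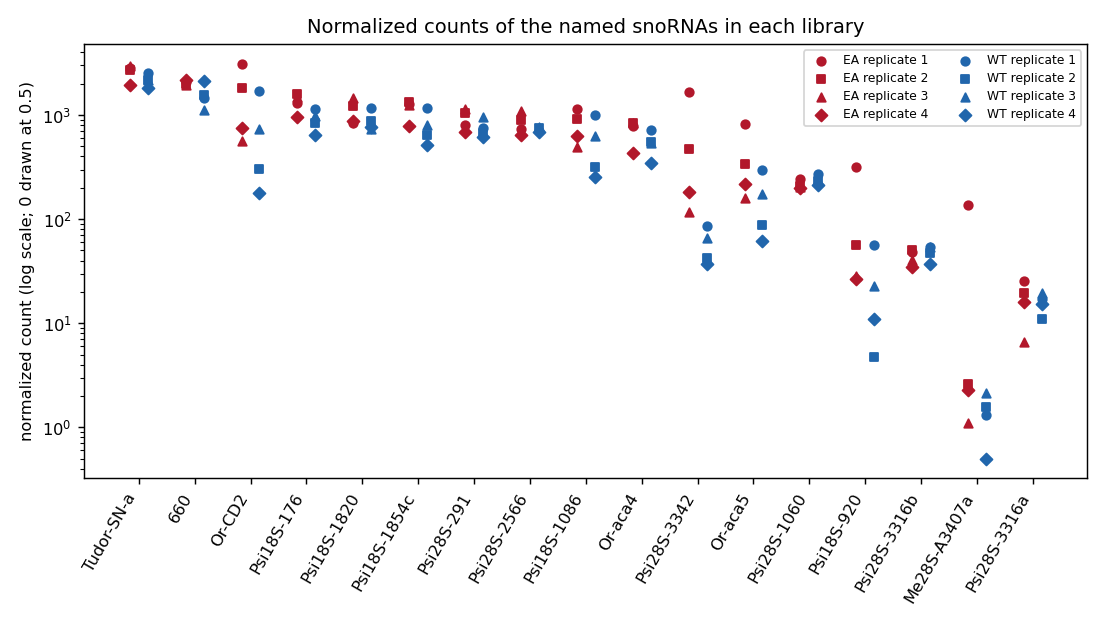
Normalized counts (log scale) of the 10 most abundant snoRNAs, the 5 with the largest positive and the 3 with a negative log2 fold change, in order of mean level, with EA in red and WT in blue and a marker shape for each replicate number. The groups overlap for every snoRNA shown except Psi28S-3342 (118 to 1675 in EA, 37.4 to 86.0 in WT).

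The 6 other snoRNAs with all EA libraries above all WT libraries were chosen for naming by that pattern and differed less. They were Psi28S-3305a and Psi28S-3405a (both in Hrb98DE), Psi28S-2179 (RpL22), Psi18S-996 (Tudor-SN), Psi28S-3091a (kra) and Psi28S-1192b (RpS5a), with log2 fold changes from 0.59 to 0.91. In Psi28S-2179 the libraries of EA were close together (110, 119, 120 and 101 normalized counts, beside 94.0, 94.7, 59.3 and 57.4 in WT). In Psi28S-1192b EA replicate 1 stood apart (97.4, 30.8, 36.1 and 30.4 in EA, beside 29.1, 22.1, 21.6 and 18.7 in WT). The lowest limma adjusted p among these 6 was 0.177.

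Psi28S-3308, in an intron of the splicing factor gene Sf3b3, was named because DESeq2 called it. It had 357, 372, 359 and 199 normalized counts in EA and 238, 131, 191 and 115 in WT, so that WT replicate 1 exceeded EA replicate 4. Its log2 fold change was 0.94 ± 0.27 (limma adjusted p = 0.154). Psi28S-1135c, in RpS5a, had 212, 198, 106 and 112 in EA and 115, 75.8, 56.1 and 87.9 in WT. On the log2 scale it differed by 0.88 ± 0.28 (limma adjusted p = 0.204).

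An annotated host on the same strand was found for 226 of the 239 snoRNAs, in 77 host genes, with 208 snoRNAs in introns. The host genes did not shift as the snoRNAs did. Of 44 hosts of tested snoRNAs, 40 were themselves tested, and 25 had a log2 fold change above 0 and 15 below 0, with a median of 0.04. Of the 100 tested snoRNAs with a tested host, 93 had a higher log2 fold change than their host, by a median of 0.49 over the 100. Among the 40 tested hosts 1 gene was called, Swim, where 1.21% of all tested genes were called. Swim encodes a secreted Wingless-interacting protein and fell by 0.74 ± 0.10 on the log2 scale (limma adjusted p = 0.0107, and 0.0921 without replicate 1 of both groups). Its C/D box snoRNA, Me18S-C1968, had instead a positive value of 0.58 ± 0.36, with a limma adjusted p of 0.578. Swim was named after its values were seen.

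The ribosomal protein gene RpS5a carries 14 H/ACA box snoRNAs, of which 13 were tested. Their log2 fold changes ran from 0.35 to 1.23 with a median of 0.88, while RpS5a itself had 2599 ± 508 normalized counts in EA and 2527 ± 306 in WT (SD, n = 4; log2 fold change 0.03 ± 0.14). With EA replicate 1 left out the 13 ran from 0.06 to 0.99 with a median of 0.55. Within this 1 host the levels differed widely. Psi18S-1854c reached 974 normalized counts and its relatives Psi18S-1854b and Psi18S-1854a 474 and 52.3, and Psi28S-1192d, which was not tested, had 1.23. The 13 tested snoRNAs spanned 53.4-fold in level per 100 bases. The letter after the position marks copies that share a predicted target, so reads of similar copies may have been divided between them.

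The dom gene, which encodes an ATPase that remodels chromatin, carries 15 snoRNAs, of which 10 were tested. They ran from -0.14 (Psi28S-3316b) to 1.05 (Psi28S-3316d) with a median of 0.48 on the log2 fold change scale, and dom had -0.15 ± 0.08. The median was 0.75 with EA replicate 4 left out. Psi18S-841c, counted among the 10, passed the filter through EA alone. All 8 snoRNAs of kra, a gene of translational control, lay between 0.12 and 0.85 (median 0.66), and kra had 0.10 ± 0.09. With EA replicate 1 left out they lay between -0.03 and 0.44, with a median of 0.27 and 7 of 8 above 0. The 7 of Hrb98DE, which encodes an RNA-binding protein of the hnRNP type, lay between 0.25 and 0.91, and Hrb98DE had -0.06 ± 0.10, a value that was 0.03 with total-read scaling. In RpS7 the 7 snoRNAs had 0.02 to 0.55 beside 0.04 ± 0.14 for the host, with the highest values in Psi18S-1377e (0.55) and Psi18S-1377b (0.46). Their median of 0.21 was 0.34 with EA replicate 1 left out, 0.32 with EA replicate 4, 0.09 with EA replicate 3 and 0.11 with WT replicate 4.

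The smaller clusters varied as well. In RpL17 the 3 tested snoRNAs had -0.16 to 0.20, beside -0.09 ± 0.14 for the host. In Sf3b3 they had 0.20 to 0.94, beside -0.03 ± 0.10, and in RpS4 0.42 to 0.76, beside 0.13 ± 0.16. In RpS16 the 4 tested had 0.39 to 0.63, beside 0.17 ± 0.16. With EA replicate 1 left out they had 0.12 to 0.38 in RpS16 and 0.05 to 0.66 in RpS4, and with WT replicate 4 left out those of Sf3b3 had -0.09 to 0.78. In pAbp, the poly(A)-binding protein gene, the 3 tested had 0.14 to 0.73, beside 0.22 ± 0.11. In CG10576 the 4 tested had 0.19 to 0.61, beside 0.004 ± 0.11. None of these hosts was called.

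**Figure D5:**
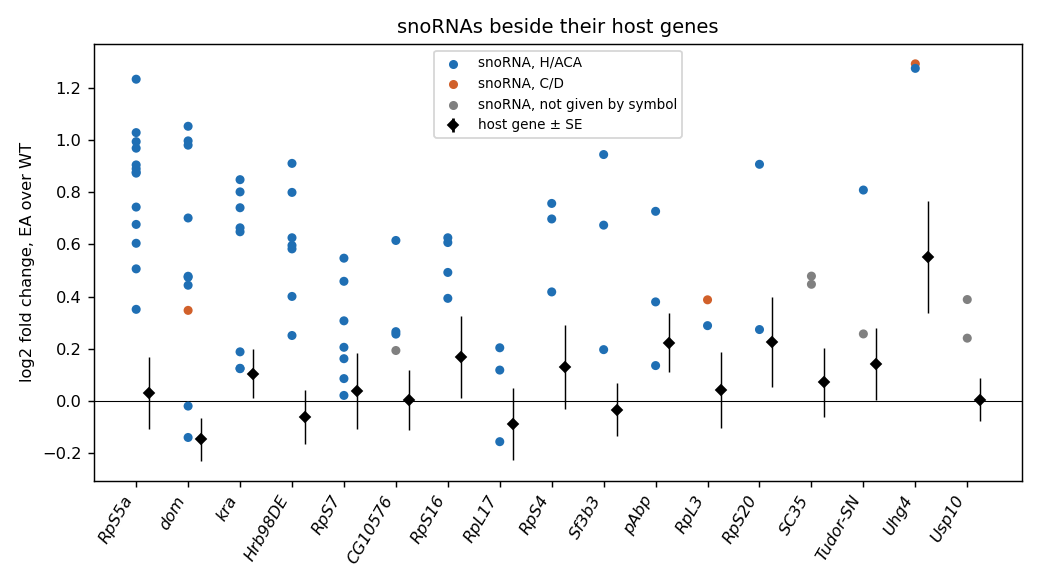
The log2 fold change of EA over WT for the tested snoRNAs (coloured points, by class) of each tested host gene with at least 2 of them, and for the host gene itself (black diamond with its standard error, limma). Most snoRNAs lie above their host, as in RpS5a (0.35 to 1.23 beside 0.03), while the 3 of RpL17 lie from -0.16 to 0.20 beside -0.09.

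Other hosts carried many snoRNAs of which few reads were seen. None of the 15 snoRNAs of Arpc2, an Arp2/3 complex gene, was tested, and their means ran from 1.33 to 7.02 normalized counts, although all 15 are H/ACA box by symbol. Uhg1 carries 16 snoRNAs, of which only Me28S-A3407a was tested, and Uhg5 carries 11 with a highest mean of 8.98. In Uhg4 the C/D box snoRNAs Me28S-G3255a, Me28S-A982a, Me28S-G3255b and Me28S-A982b had means from 1.23 to 3.44 normalized counts beside 1145 for Or-CD2. The Uhg transcripts themselves were seen, with group means from 46.0 for Uhg4 to 720 for Uhg7 among the 6 tested. Uhg4 had 69.1 ± 20.6 normalized counts in EA and 46.0 ± 8.29 in WT (SD, n = 4). Its log2 fold change was 0.55 ± 0.21, with a limma adjusted p of 0.315. Of the 6 tested Uhg genes 5 had a log2 fold change above 0 and 0 were called, with 1 at an unadjusted limma p under 0.05. Over all genes, 1309 of 10347 had such a p.

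The genes for the snoRNA-binding proteins and for the enzymes that make snoRNAs did not pass the test. Of 20 listed genes 16 were tested and 0 were called by limma, where 1.21% of all tested genes were. An unadjusted limma p under 0.05 was found for 0 of them, and for 1309 of all 10347 tested genes. Of the 16, 5 had a log2 fold change above 0 and 11 below 0 (median -0.12). Fib, which encodes the methyltransferase Fibrillarin, had 73.0 ± 15.7 normalized counts in EA and 81.9 ± 6.42 in WT (SD, n = 4). Nop60B, the pseudouridine synthase gene, had 166 ± 48.8 and 189 ± 28.9. NHP2, another H/ACA core protein gene, had the highest log2 fold change of the lists, at 0.34 (limma adjusted p = 0.458). All 5 tested assembly factor genes, CG10341, Nufip, pont, rept and Pih1D1, had log2 fold changes from -0.22 to -0.01, and Pih1D1 was at 0.08 with total-read scaling. The 6 processing genes, among them the debranching enzyme gene ldbr and the exonuclease genes Rat1, pcm and Rrp6, had values from -0.13 to 0.17, and Rrp6 was at -0.04 but at 0.05 with total-read scaling.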

How the data were processed

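The deposited table held a signal for each identifier and library, a read count divided by a DESeq2 size factor by the authors, and the mean of these normalized counts. The submitters' processing notes name TopHat, featureCounts and Subread with the builds dm3 and BDGP5, and versions are not given. The authors also deposited a log2 fold change and its standard error, a Wald statistic (a score) and p-values, which were not used. All values (100% in each library, tolerance 0.001) were whole multiples of the smallest step, so whole reads were recovered.

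Symbols, lengths, positions and hosts came from Ensembl BDGP6.54 (release 115), matched by FlyBase identifier for 14022 of 14622 identifiers (95.9%). The table held 239 of the 257 snoRNA symbols. Sequences were not used here. limma 3.58.1 (lmFit, eBayes with a trend; R 4.3.3) was fitted on all 8 libraries with group as the only term, two-sided. edgeR 4.0.16 and DESeq2 1.42.0 on the recovered reads were alternatives. Fold changes on this scale understate those of low genes. The fits were tested on simulated data. Scalings, filters (no filter, or a mean of at least 50), pseudocounts (0.5 and 5), a threshold of 0.01, single libraries left out and a replicate block were tried.

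Genes named were the 10 most abundant snoRNAs, the 5 largest and 5 smallest log2 fold changes (3 were below 0), the listed protein and Uhg genes, and hosts with at least 3 tested snoRNAs, and others were chosen after their values were seen. The members and lists were chosen with earlier results of these data known. Over all tested genes, the deviations of same-numbered libraries from their group means correlated at 0.19, -0.19, -0.23 and -0.12. The numbers were therefore not taken to pair the libraries. For the tested snoRNAs, replicate 1 had the highest and replicate 4 the lowest median deviation in both groups. A pairing in the snoRNAs alone was not tested. Floors and counts cover counting error only.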

Additional observations from a re-analysis of the deposited data

Results flagged for a closer look

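Within a group of 4 libraries, 1 library lay apart from the other 3 (by Dixon's gap test) in 17 of the 132 groups examined for the named values. The limit of the test is set for about 1 in 20 groups of independent normal values. The groups here share the same 8 libraries, and some genes were named after their values were seen. The count of 17 therefore cannot be set against that rate. Among snoRNAs, EA replicate 1 was high for Me28S-A3407a (137 normalized counts) and Psi18S-920 (314). EA replicate 4 was low for Or-aca4 (432) and Psi18S-1854c (794). Among the snoRNAs named after their values were seen, EA replicate 1 was high for Psi28S-3091a (148), Psi28S-1192b (97.4) and Psi28S-3405a (60.7), and EA replicate 4 was low for Psi28S-3308 (199). The sum of the snoRNAs without a class in the symbol was high in WT replicate 1, at 5876. Among host genes EA replicate 1 was high for Uhg1 (120), Uhg3 (85.9) and Uhg4 (99.7), WT replicate 2 was low for Uhg1 (41.1), and EA replicate 3 was high for RpL17 (2628). Among protein genes EA replicate 3 was high for Fib (96.3), WT replicate 2 high for Rrp6 (305) and WT replicate 1 low for pont (75.4).

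Over all 115 tested snoRNAs, 32 of 230 groups had such a library. EA replicate 1 was high in 16 of them and EA replicate 4 low in 7.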

How the results depend on the processing

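The number of snoRNAs called was 0 under every alternative tried except DESeq2 (3) and leaving out EA replicate 3 (1, Psi28S-3342). The number of all tested genes called, 125, was 79 with a mean of at least 50, 532 in DESeq2, 26 at a threshold of 0.01, 36 to 184 when single libraries were left out, and 45 without replicate 1 of both groups, an alternative chosen after seeing the data. With total-read scaling 74.7% of the calls over all genes were higher in EA, against 54.4%, and the median over all genes was 0.08. The number of snoRNAs above 0 was 102 to 113 of 115 when libraries were left out, and the median log2 fold change was 0.38 to 0.68 for H/ACA box and 0.32 to 0.62 for C/D box snoRNAs. With the replicate number as a replicate block, 26 genes and 0 snoRNAs were called, and 49 snoRNAs had an unadjusted p under 0.05.

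Fold changes near 0 changed sign. With total-read scaling Psi28S-3316a was at 0.063, Hrb98DE at 0.028, Pih1D1 at 0.076, Rrp6 at 0.048 and Sf3b3 at 0.055. Psi28S-3316a was at 0.0062 with a pseudocount of 5, 0.091 in edgeR and 0.082 in DESeq2. Without replicate 1 of both groups CG10576 was at -0.016, Nop56 at -0.13 and Uhg1 at -0.15. When single libraries were left out, the log2 fold change ran from -0.25 to 0.35 for Psi28S-3316a, -0.10 to 0.060 for CG10576, -0.11 to 0.016 for Hrb98DE, -0.080 to 0.17 for Nop56, -0.097 to 0.12 for Pih1D1, -0.0087 to 0.21 for RpS4, -0.097 to 0.10 for RpS5a, -0.092 to 0.11 for RpS7, -0.085 to 0.066 for Rrp6, -0.099 to 0.019 for Sf3b3, -0.085 to 0.076 for Tgs1, -0.20 to 0.20 for Uhg1, -0.082 to 0.20 for ldbr and -0.22 to 0.032 for nop5. Swim was not called at a threshold of 0.01, with the replicate block (adjusted p = 0.114) or without replicate 1 of both groups (0.0921), and its adjusted p ran from 2.7e-08 to 0.114 over the alternatives. The cause was not tested. Of the other values of named genes under alternatives, 1120 kept their direction and their side of the threshold. Few C/D box snoRNAs (9 of 100) reached the count needed for a test.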
